A study of Rattus norvegicus with 13 samples.

Results

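Immediate early genes are switched on within minutes when a cell is stimulated, without the need for newly made protein, and their transcripts are short-lived. The 10 described here in the rat hypothalamus were chosen by name as a family: Fos, Fosb, Fosl2, Jun, Junb, Egr1, Egr2, Nr4a1, Arc and Npas4. They are 10 of the 22093 genes that the arrays annotate with a single symbol. Each has 1 transcript cluster (the set of probes read as 1 signal), and all 10 passed the filter on low signal that left 16033 genes for testing.

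The study put total RNA from micro-dissected hypothalami on 13 Affymetrix arrays, all from male rats of the Sprague-Dawley stock. HF-SD rats (5 arrays) ate a high-fat diet with 35% of energy as safflower oil, a source of linoleic acid (omega-6). HF-FD rats (4 arrays) ate a high-fat diet with 35% of energy as flaxseed oil, a source of alpha-linolenic acid (omega-3), and LF-CD rats (4 arrays) ate a low-fat control diet with 16% of energy as soybean oil. All rats reached the facility at 6 to 7 weeks of age, stayed on their diet for 2 months, were 14 to 15 weeks old when tissue was taken and were killed with carbon dioxide. No genetic manipulation is named for any group. The labels do not say that each array held the RNA of 1 rat, so p-values measure the spread between these arrays, which may be partly technical. The comparisons ask whether a long diet with either oil goes with other levels of activity-regulated transcripts in the hypothalamus.

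In neurons, calcium entry through receptors and channels activates kinases of the ERK and CaM kinase families, which phosphorylate the factors CREB and SRF with its partners. CREB binds cAMP response elements (CRE) and SRF binds CArG boxes, which lie near the start sites of some of these genes. Fos and Jun proteins pair to form the AP-1 transcription factor, Egr and Nr4a proteins are further transcription factors, and Arc acts directly at synapses. Neuroanatomists use Fos in hypothalamic sections as a mark of recently active neurons.

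Promoter sequences of Egr1, Egr2 and Nr4a1 are shown because Egr1 and Nr4a1 followed Fos most closely from array to array and Egr2 shares motifs with Egr1. RefSeq sequences of assembly GRCr8, from 250 bases before to 50 bases after the start site, were at hand for 7 of the 10 genes. None was at hand for Fos, Jun and Arc. The sequences of Egr1, Egr2 and Nr4a1 carry CRE half-sites, and the Egr1 and Egr2 promoters carry CArG boxes as well. They run 5′ to 3′ on the strand of the gene, with the motifs found on either strand in capitals.
Egr1 (GRCr8, chr18:26736828-26737127, plus strand): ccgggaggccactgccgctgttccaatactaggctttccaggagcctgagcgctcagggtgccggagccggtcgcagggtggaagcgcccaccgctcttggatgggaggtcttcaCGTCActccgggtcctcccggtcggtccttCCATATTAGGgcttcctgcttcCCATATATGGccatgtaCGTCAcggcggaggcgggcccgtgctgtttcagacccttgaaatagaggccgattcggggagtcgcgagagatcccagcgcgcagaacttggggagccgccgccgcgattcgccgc
Egr2 (GRCr8, chr20:21054392-21054691, minus strand): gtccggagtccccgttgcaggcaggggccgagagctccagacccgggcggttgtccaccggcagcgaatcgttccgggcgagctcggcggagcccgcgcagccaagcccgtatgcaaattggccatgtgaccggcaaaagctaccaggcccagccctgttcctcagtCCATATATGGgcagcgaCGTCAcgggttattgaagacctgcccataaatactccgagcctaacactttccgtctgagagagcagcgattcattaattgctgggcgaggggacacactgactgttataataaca
Nr4a1 (GRCr8, chr7:134259888-134260187, plus strand): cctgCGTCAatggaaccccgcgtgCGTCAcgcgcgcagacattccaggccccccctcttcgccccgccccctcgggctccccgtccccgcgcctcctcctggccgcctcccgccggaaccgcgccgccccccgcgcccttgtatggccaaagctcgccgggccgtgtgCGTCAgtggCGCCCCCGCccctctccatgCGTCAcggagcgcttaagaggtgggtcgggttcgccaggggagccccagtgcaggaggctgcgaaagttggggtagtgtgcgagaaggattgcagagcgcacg
The Egr1 promoter held 2 CArG boxes, starting 105 and 83 bases before the start site, and 2 CRE half-sites, starting 135 and 66 bases before it. Egr2 had 1 CArG box and 1 CRE half-site, which began 83 and 66 bases before its start site, as the nearer pair in Egr1 does. Nr4a1 had no CArG box but 4 CRE half-sites, and 1 match to the Egr motif.

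Motifs were searched on both strands as plain letters. The CRE half-site TGACG was present in 4 of the 7 promoters (Nr4a1, Egr1, Junb and Egr2), against 21.2% of 33469 rat promoters of the same length. The CArG box was present in 2 of 7 (Egr1 and Egr2), against 1.64% of all promoters. The Egr motif GCGNGGGCG was present in 2 of 7 (Fosl2 and Nr4a1), against 4.98% of all. Neither the full CRE TGACGTCA (1.83% of all) nor the AP-1 motif TGANTCA (7.33% of all) was found in these windows. The full CRE contains the half-site. These matches are a description of letters in a window and were not tested as binding sites.

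Before the values, 2 facts about the arrays matter. First, HF-SD replicate 5 stood apart. Slc17a7, the vesicular glutamate transporter of cortical neurons, read 10.13 log2 units there and 7.44 to 7.95 on the other HF-SD arrays, against 7.55 to 7.83 on the HF-FD and 7.60 to 8.26 on the LF-CD arrays. Tbr1, a transcription factor of deep cortical layers, read 8.50 there and 7.32 to 7.62 on the other HF-SD arrays. Of 10 measured markers of cortex, striatum and thalamus, 3 (Slc17a7, Tbr1 and Neurod6) had their highest value on that array. Emx1, Adora2a, Ppp1r1b and Tnnt1 were within 0.12 of the mean of the other HF-SD arrays, and Prkcd was 0.47 lower. The mean of the 10 markers was 8.29 on HF-SD replicate 5, 7.76 to 7.97 on the other HF-SD arrays, 7.73 to 7.99 on HF-FD and 7.74 to 7.96 on LF-CD arrays. Markers of the hypothalamus itself were present on every array, with mean signals of 8.67 to 9.17, and none of the 15 peaked on HF-SD replicate 5. The HF-SD differences of each gene are therefore given with and without that array.

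Second, the signal distribution differed by diet. The median of 1125 olfactory receptor genes, which serve the sense of smell, was 4.69 to 4.79 on HF-SD, 4.83 to 4.95 on HF-FD and 4.95 to 5.11 on LF-CD arrays. LF-CD replicate 3 also had a mean of 9.55 for skeletal muscle markers, against 7.36 to 8.00 on the other 12 arrays. What these features contribute to each result below was not tested beyond the alternatives named. Since this is bulk tissue, fewer cells of a type and less RNA per cell cannot be told apart.

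In tests between diets, 1 of the 10 genes passed. It was Npas4, lower in HF-SD than in LF-CD hypothalami (limma, Benjamini-Hochberg adjusted p under 0.05 over 16033 genes), where 39.8% of all genes passed and 16.9% were lower. None of the 10 passed in HF-FD against LF-CD or in HF-SD against HF-FD, as for all genes (0% in both). By unadjusted limma p under 0.05, 1 of 10 passed in HF-SD against LF-CD (51.0% of all genes), 1 of 10 in HF-FD against LF-CD (20.1%) and 0 of 10 in HF-SD against HF-FD (15.5%). In the limma test of any difference among the diets, 0 of 10 passed against 25.3% of all genes, and 1 of 10 against 42.2% by unadjusted p. Without HF-SD replicate 5, 1 of 10 passed in HF-SD against LF-CD (28.1% of all genes) and 0 of 10 in the test of any difference (10.2%). After quantile normalization the count was 0 of 10 in both tests, against 14.5% and 4.24% of all genes. With both changes it was 0 of 10 in HF-SD against LF-CD, against 6.07% of all genes. No gene of the 10 had diet groups free of overlap. Among all genes that was so for 26.0% in HF-SD against LF-CD, 8.32% in HF-FD against LF-CD and 5.89% in HF-SD against HF-FD.

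The median log2 difference of the 10 genes was 0.004 for HF-SD minus LF-CD, where the median of all tested genes was 0.069. It was -0.066 for HF-FD minus LF-CD (all genes 0.046) and -0.005 for HF-SD minus HF-FD (all genes 0.003). The first comparison had 5 genes above 0 and 5 below. In the comparison of HF-FD with LF-CD 2 were above and 8 below, and HF-SD against HF-FD had 5 on each side. The first 2 comparisons share the LF-CD arrays.

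**Figure D1:**
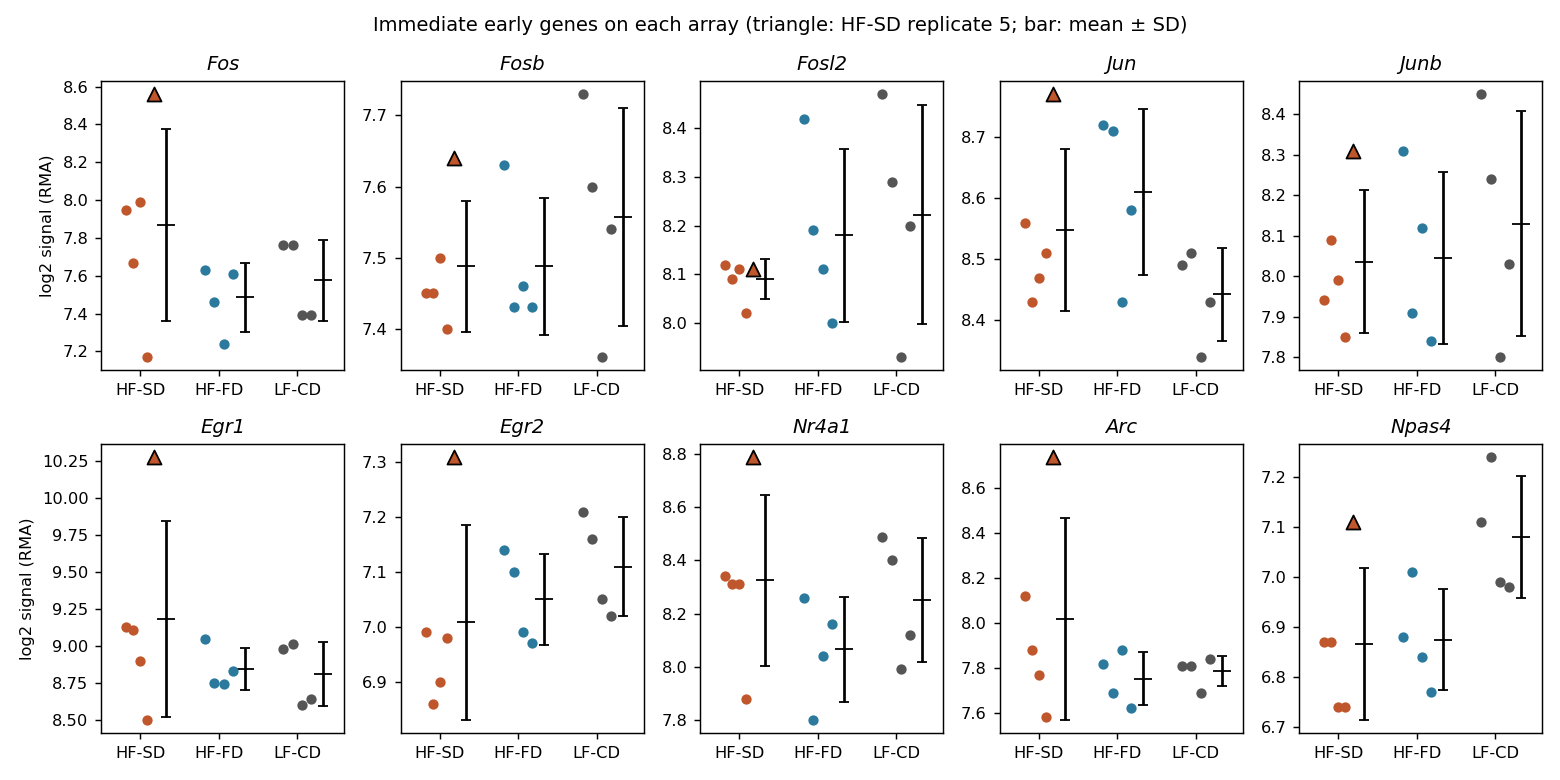
Log2 RMA signal (y axis, a separate scale for each gene) of the 10 immediate early genes on each array, by diet (x axis), with points for arrays, a triangle for HF-SD replicate 5 and a bar for the mean ± SD (n = 5, 4 and 4). Groups overlap for every gene, and the triangle is the highest point for Fos, Jun, Egr1, Egr2, Nr4a1 and Arc.

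Among the AP-1 genes, Fos, the classic partner of Jun, had log2 signals of 7.95, 7.67, 7.99, 7.17 and 8.56 on HF-SD arrays 1 to 5. They were 7.63, 7.46, 7.24 and 7.61 on HF-FD arrays, and 7.76, 7.76, 7.39 and 7.39 on LF-CD arrays. HF-SD arrays hold both the highest and the lowest Fos value of the study, and the other diets lie between them. The mean was 7.87 ± 0.51 (SD, n = 5) in HF-SD, 7.48 ± 0.18 (SD, n = 4) in HF-FD and 7.58 ± 0.21 (SD, n = 4) in LF-CD hypothalami. The difference of 0.39 between HF-SD and HF-FD was among the larger ones of the 10 genes, with a 95% interval of -0.04 to 0.82 and a limma adjusted p of 0.358. It was 0.21 (-0.14 to 0.56) without HF-SD replicate 5. HF-SD minus LF-CD was 0.29 (-0.14 to 0.72, limma adjusted p 0.252), and 0.12 without HF-SD replicate 5. Leaving out HF-SD replicate 4 instead gave 0.47 with a limma adjusted p of 0.0321, so this call turns on a single array.

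Fosb encodes a Fos relative whose truncated form accumulates with repeated stimulation. It read 7.45, 7.45, 7.50, 7.40 and 7.64 on HF-SD arrays, 7.63, 7.43, 7.46 and 7.43 on HF-FD arrays, and 7.73, 7.60, 7.36 and 7.54 on LF-CD arrays. Both ends of its range were LF-CD arrays. The log2 difference was -0.07 ± 0.08 (SE) for HF-SD minus LF-CD and for HF-FD minus LF-CD, with limma adjusted p values of 0.48 and 0.62. Leaving out HF-SD replicate 5 gave -0.11 for HF-SD minus LF-CD (limma adjusted p 0.301).

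Fosl2, also called Fra-2, is a more slowly induced Fos relative. Its signals were 8.12, 8.09, 8.11, 8.02 and 8.11 on HF-SD arrays, 8.42, 8.19, 8.11 and 8.00 on HF-FD arrays, and 8.47, 8.29, 7.93 and 8.20 on LF-CD arrays. The HF-SD arrays were close together, with an SD of 0.04 against 0.18 in HF-FD and 0.22 in LF-CD. HF-SD minus LF-CD was -0.13 (95% interval -0.34 to 0.07, limma adjusted p 0.274). It was -0.14 without HF-SD replicate 5. Without LF-CD replicate 3 it was -0.23, with a limma adjusted p of 0.0453.

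Jun read 8.56, 8.43, 8.47, 8.51 and 8.77 on HF-SD arrays, 8.72, 8.71, 8.43 and 8.58 on HF-FD arrays, and 8.49, 8.51, 8.34 and 8.43 on LF-CD arrays. HF-FD arrays 1, 2 and 4 lay above every LF-CD array. The mean difference HF-FD minus LF-CD was 0.17, with a 95% interval of -0.01 to 0.34 and a limma adjusted p of 0.272. HF-SD minus LF-CD was 0.10 (limma adjusted p 0.295), and 0.05 without HF-SD replicate 5.

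Junb, a Jun relative that dampens some Jun targets, read 7.94, 8.09, 7.99, 7.85 and 8.31 on HF-SD arrays. It read 8.31, 7.91, 8.12 and 7.84 on HF-FD arrays, and 8.45, 8.24, 7.80 and 8.03 on LF-CD arrays. The LF-CD arrays again spanned the whole range, and the differences between diets over all arrays were at most 0.10 in size. Without HF-SD replicate 5, HF-SD minus LF-CD was -0.17 (95% interval -0.45 to 0.11, limma adjusted p 0.336), against -0.10 with it.

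Of the zinc-finger factors, Egr1, used as an activity mark like Fos, read 9.13, 9.11, 8.90, 8.50 and 10.28 on HF-SD arrays. Its signals were 9.05, 8.75, 8.74 and 8.83 on HF-FD arrays, and 8.98, 9.01, 8.60 and 8.64 on LF-CD arrays. As for Fos, the highest array was HF-SD replicate 5 and the lowest HF-SD replicate 4. HF-SD minus LF-CD was 0.38, with a 95% interval of -0.16 to 0.91 and a limma adjusted p of 0.233. The value fell to 0.10 (-0.20 to 0.40) once HF-SD replicate 5 was left out.

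Egr2, known for its part in myelination and also induced by activity, read 6.99, 6.86, 6.90, 6.98 and 7.31 on HF-SD arrays. It read 7.14, 7.10, 6.99 and 6.97 on HF-FD arrays, and 7.21, 7.16, 7.05 and 7.02 on LF-CD arrays. HF-SD arrays 1 to 4 were below all LF-CD arrays, and replicate 5 was above all of them. The difference HF-SD minus LF-CD was -0.10 (limma adjusted p 0.339), and -0.18 without replicate 5 (limma adjusted p 0.0547).

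Nr4a1, an orphan nuclear receptor also called Nur77, read 8.34, 8.31, 8.31, 7.88 and 8.79 on HF-SD arrays. Its signals were 8.26, 7.80, 8.04 and 8.16 on HF-FD arrays, and 8.49, 8.40, 7.99 and 8.12 on LF-CD arrays. HF-SD replicates 1, 2, 3 and 5 were above every HF-FD array, and replicate 4 was not. HF-SD minus HF-FD was 0.26 (95% interval -0.06 to 0.58, limma adjusted p 0.393), and 0.15 without HF-SD replicate 5. HF-SD minus LF-CD was 0.08 (limma adjusted p 0.702), and changed sign to -0.04 without that array (limma adjusted p 0.84).

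Npas4, a factor of neurons that responds to calcium entry and acts on inhibitory synapses, was the gene that passed. It read 6.87, 6.87, 6.74, 6.74 and 7.11 on HF-SD arrays, 6.88, 7.01, 6.84 and 6.77 on HF-FD arrays, and 7.11, 7.24, 6.99 and 6.98 on LF-CD arrays. HF-SD arrays 1 to 4 were below all LF-CD arrays, while replicate 5 lay among them. The mean was 6.86 ± 0.15 (SD, n = 5) in HF-SD, 6.88 ± 0.10 (SD, n = 4) in HF-FD and 7.08 ± 0.12 (SD, n = 4) in LF-CD hypothalami. Npas4 was lower in HF-SD than in LF-CD hypothalami, with a log2 difference of -0.22 ± 0.08 (SE), or 0.860 of the LF-CD signal (limma adjusted p 0.0479). The exact two-sided permutation test of the same arrays gave p = 0.0714, where the smallest it can give is 0.00794. Npas4 is a gene of low signal, with a mean of 6.94 (rank 14519 of 16033) where the filter was 6.58. Over all genes the direction of the calls in this comparison went with signal. With a filter at 7.86, 3036 genes were higher and 343 lower, and with no filter 3916 were higher and 6087 lower. The part of signal level in the Npas4 call was not tested.

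HF-FD minus LF-CD was of like size for Npas4, -0.21, with a limma adjusted p of 0.224. HF-SD and HF-FD differed by -0.01 (95% interval -0.19 to 0.17). The HF-SD call was lost when the arrays were normalized again: the difference was -0.04 after quantile normalization (limma adjusted p 0.797), -0.02 after cyclic loess (limma adjusted p 0.905) and -0.17 after median centring (limma adjusted p 0.0771). With array weights it was -0.33 (limma adjusted p 0.00182). It was also lost without any 1 of 10 arrays (limma adjusted p 0.0504 to 0.143), and was kept without LF-CD replicate 3, LF-CD replicate 4 or HF-SD replicate 5 (0.0409, 0.0441 and 0.0182). With the olfactory receptor median as a covariate the difference was -0.22 with an SE of 0.21 (limma adjusted p 0.727), and 0 of all genes passed. That median did not overlap between HF-SD and LF-CD arrays, so this fit can hardly separate it from diet.

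Arc, whose protein trims AMPA receptors from synapses, is the effector in the set rather than a transcription factor. It read 8.12, 7.88, 7.77, 7.58 and 8.74 on HF-SD arrays, 7.82, 7.69, 7.88 and 7.62 on HF-FD arrays, and 7.81, 7.81, 7.69 and 7.84 on LF-CD arrays. LF-CD arrays were close together (SD 0.07), and HF-SD arrays were not (SD 0.45). HF-SD minus LF-CD was 0.23 (limma adjusted p 0.276), and 0.05 without HF-SD replicate 5.

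**Figure D2:**
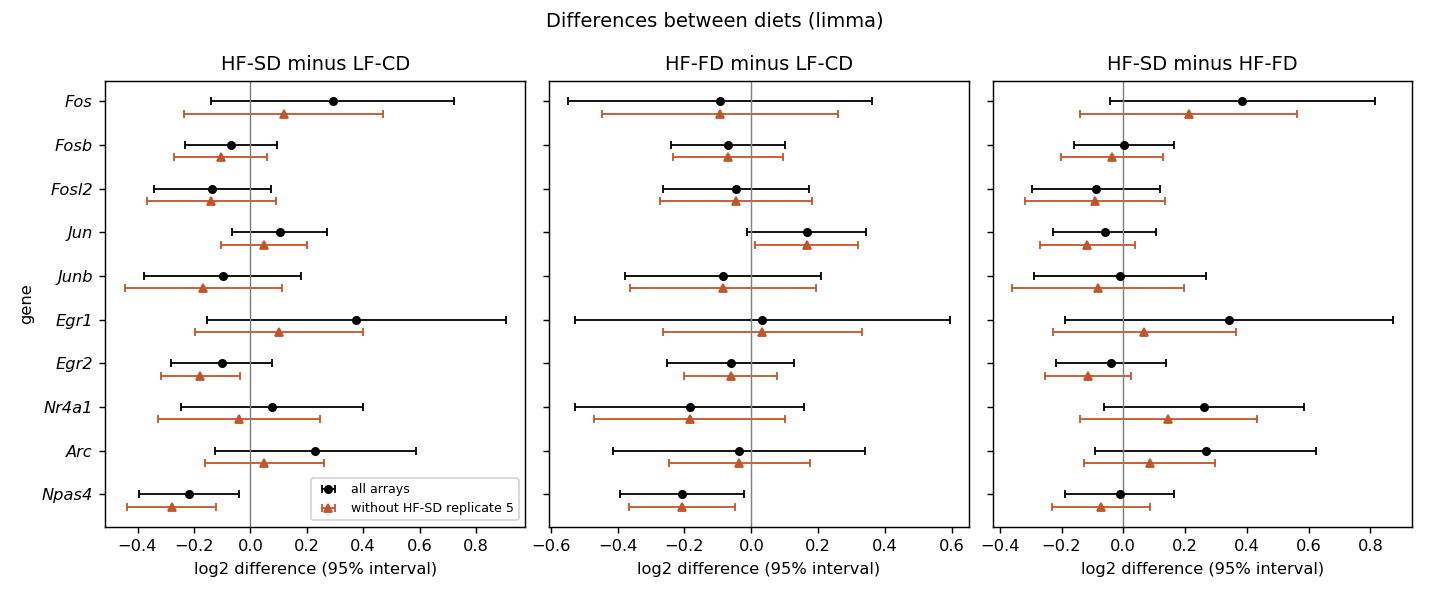
Log2 differences between diets (x axis) for each gene (y axis) with 95% intervals from limma, for all 13 arrays (circles) and without HF-SD replicate 5 (triangles). The differences of Fos, Egr1 and Arc between HF-SD and LF-CD, 0.29, 0.38 and 0.23 over all arrays, were 0.12, 0.10 and 0.05 without it, while Npas4 lay below 0 in both.

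Several of the 10 genes varied widely between arrays of the same diet. The SD within a diet, pooled over the 3 diets, was 0.44 for Egr1, 0.36 for Fos, 0.29 for Arc and 0.26 for Nr4a1, against a median of 0.117 over the 16033 genes. Without HF-SD replicate 5, Fos still varied more than 96.6% of genes, Egr1 more than 93.4%, Nr4a1 more than 92.2% and Junb more than 91.3%. Arc was then above 73.8% of genes, Fosl2 above 80.2%, Fosb above 41.2%, Npas4 above 35.0%, Jun above 30.4% and Egr2 above 17.4%.

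HF-SD replicate 5 had the highest value of the 13 arrays for 6 of the 10 genes (Fos, Jun, Egr1, Egr2, Nr4a1 and Arc), as it had for 19.9% of all tested genes. Against the mean of the other HF-SD arrays, Egr1 was 1.38 log2 units higher there, ranking 3 of all 16033 genes. Arc was 0.91 higher (rank 17), Fos 0.87 (rank 22) and Nr4a1 0.58 (rank 78). The median of all genes was 0.042 and the 95th percentile 0.278. Egr2 (0.38), Junb (0.35), Npas4 (0.30) and Jun (0.28) were above that percentile, whereas Fosb (0.18) and Fosl2 (0.02) were not. Slc17a7 had the largest difference (2.37, rank 1), and Tbr1 was 1.04 higher (rank 11). The part of these cortical transcripts in the values of Egr1, Arc and Fos was not tested.

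Other arrays stood at the ends for other genes. LF-CD replicate 1 was highest for Fosb, Fosl2 and Junb and for 24.6% of all genes, and LF-CD replicate 2 was highest for Npas4. At the low end, LF-CD replicate 3 held the lowest value of Fosb, Fosl2, Jun and Junb and of 35.1% of all genes. HF-SD replicate 4 held the lowest value of Fos, Egr1 and Arc, and of 7.50% of all genes.

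**Figure D3:**
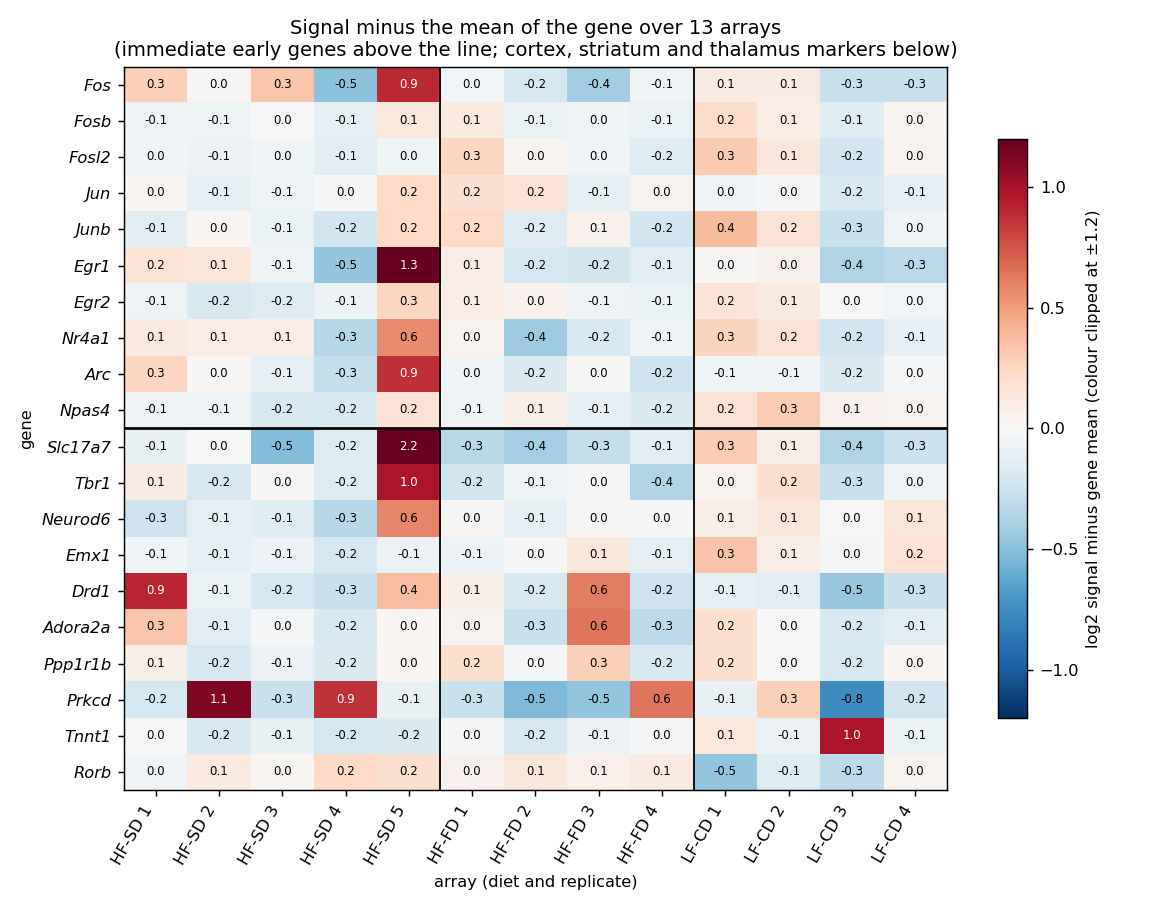
Log2 signal minus the mean of the gene over 13 arrays (colour and printed value, one row per gene, one column per array), for the 10 immediate early genes above the line and 10 markers of cortex, striatum and thalamus below it. The HF-SD 5 column is high for Fos, Egr1, Nr4a1 and Arc and for Slc17a7, Tbr1 and Neurod6, while Drd1 and Prkcd are high on other arrays.

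Some of the genes moved with Fos from array to array. After the diet mean was removed from each, Egr1 followed Fos over the 13 arrays with Pearson r = 0.892 and Spearman rho = 0.802 (permutation within diets, adjusted p over 9 genes 0.0158 and 0.0153). Nr4a1 followed Fos with r = 0.889 and rho = 0.863 (permutation, adjusted p 0.0158 and 0.0153). Fosb (r = 0.664, rho = 0.742) and Jun (r = 0.691, rho = 0.758) passed by both measures too, with permutation adjusted p of 0.0158 and 0.0499 for r. Junb passed by r (0.578, permutation adjusted p 0.0499) but not by rho (0.599, permutation adjusted p 0.061). The calls by r of Jun and Junb were lost when any 1 of 9 and of 11 arrays was left out, and those of Egr1, Nr4a1 and Fosb when 1 was (HF-SD replicate 5).

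Arc showed r = 0.758 but rho = 0.379 with Fos, and neither passed (permutation adjusted p 0.0753 and 0.265). Egr2 had r = 0.675 and rho = 0.632, Npas4 had r = 0.662 and rho = 0.566, and neither gene passed by either measure. Fosl2 passed by rho alone (0.681, permutation adjusted p 0.0338), with r = 0.370.

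These relations lean on the arrays at the ends. Without HF-SD replicates 4 and 5, the arrays farthest from the median of Fos, r was 0.591 for Egr1, 0.690 for Nr4a1, 0.627 for Fosb, 0.686 for Jun and 0.395 for Junb, and Arc was at -0.075. Without HF-SD replicate 5 alone, r was 0.825 for Egr1 and 0.811 for Nr4a1, both with a permutation adjusted p of 0.0518, and no gene passed. Among the other genes the median r with Fos was 0.286 and the 95th percentile 0.742. Egr1 ranked 25 and Nr4a1 ranked 32 of 16032 genes by r with Fos. After the median of tested genes was regressed out, r with Fos was 0.831 for Egr1 and 0.808 for Nr4a1 (permutation adjusted p 0.0206 and 0.0302), 0.267 for Fosb, 0.463 for Jun and 0.132 for Junb, and -0.563 for Fosl2.

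**Figure D4:**
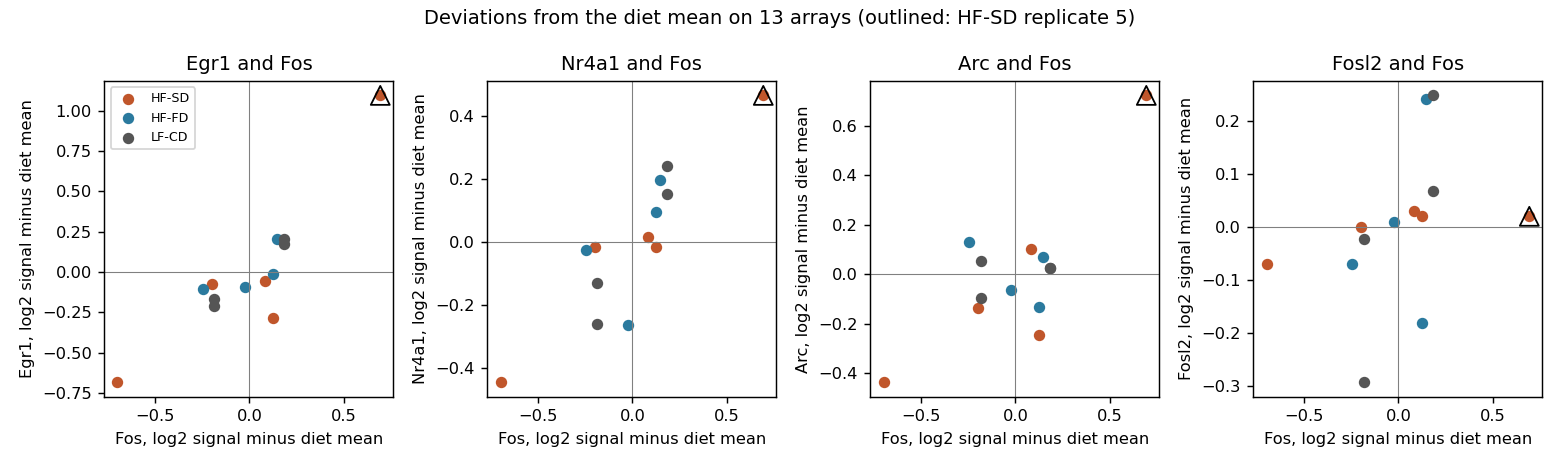
Deviation of Egr1, Nr4a1, Arc and Fosl2 from the diet mean (y axes, log2 units) against that of Fos (x axis, log2 units), 1 point per array, coloured by diet, with HF-SD replicate 5 outlined. Egr1 (r = 0.892) and Nr4a1 (r = 0.889) rise along the Fos axis, the Arc relation (r = 0.758) rests on the points at the ends, and Fosl2 (r = 0.370) has its largest deviations on arrays with small Fos deviations.

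Over all 45 pairs of the 10 genes, r was above 0 in 45 (median 0.679, lowest 0.227, highest 0.942). By permutation within diets, 29 pairs passed by Pearson and 15 by Spearman after adjustment over the 45, and 5 passed by Pearson without HF-SD replicate 5. Over all pairs of tested genes the median r was 0.188, 63.0% of pairs were above 0 and 12.1% reached the 0.679 of the 10 genes. Without HF-SD replicate 5 the median of the 45 pairs was 0.519, which 26.9% of all pairs reached. How many other pairs would pass the permutation test was not computed. The tightest pair was Fosb with Junb (r = 0.942, rho = 0.923, permutation adjusted p 0.00945 and 0.00675). Fosb with Fosl2 had r = 0.863, and it was 0.954 without HF-SD replicate 5. Egr1 with Nr4a1 had r = 0.884, and 0.894 without that array. Egr1 with Arc had r = 0.920 but rho = 0.582, which did not pass (permutation adjusted p 0.0988). Its r was 0.661 without HF-SD replicate 5 (permutation adjusted p 0.147) and 0.473 without the 2 farthest arrays.

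Fosb, Fosl2 and Junb also followed the overall signal of the array most closely: their r with the median of tested genes was 0.902, 0.891 and 0.813 (rho 0.945, 0.874 and 0.841). The permutation adjusted p for r, over 110 relations of the 10 genes with array-wide values, was 0.0125, 0.0121 and 0.0331. Without the 2 arrays farthest from the median of that measure, r was 0.865, 0.777 and 0.692. Fos had r = 0.637 with the same median, and Egr1 0.584. With the mean of 8 neuron markers, Nr4a1 had r = 0.849 (rho 0.846) and Fos r = 0.833 (rho 0.808), both with a permutation adjusted p of 0.0139, and r was 0.720 and 0.743 without the 2 farthest arrays. Arc followed the mean of the cortex, striatum and thalamus markers (r = 0.878, rho = 0.819, permutation adjusted p 0.0281), with r = 0.637 without HF-SD replicate 5. With that list Junb had r = 0.685 (permutation adjusted p 0.0492) and Egr1 r = 0.841 (permutation adjusted p 0.0527).

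**Figure D5:**
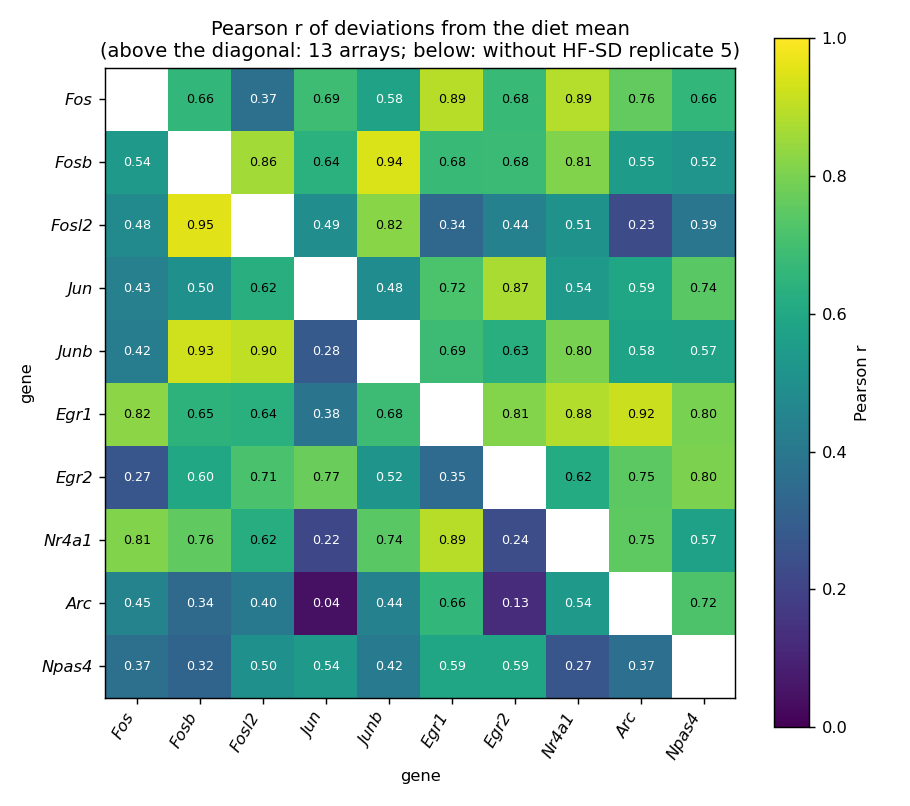
Pearson r between deviations from the diet mean for each pair of the 10 genes (both axes list genes), over 13 arrays above the diagonal and without HF-SD replicate 5 below it. Fosb, Fosl2 and Junb form one block that stays high below the diagonal, and Fos, Egr1 and Nr4a1 another, while the pairs of Arc, Jun and Egr2 with Fos drop to 0.446, 0.434 and 0.269.

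Among all 16032 other genes, those most like Fos across the 13 arrays by r of deviations from the diet mean were Kit (0.964), Wdr37 (0.956), Pcmt1 (0.949), Srd5a3 (0.931) and Bpgm (0.928). Pdpk1 (0.928), Zdhhc17 (0.927), Tpx2 (0.925), Ap2a2 (0.924) and Sema6d (0.912) followed. Their r without HF-SD replicate 5 was 0.865 to 0.955. Kit, a receptor tyrosine kinase, read 8.72, 8.50, 8.72, 8.22 and 8.98 on HF-SD arrays, 8.34, 8.35, 8.09 and 8.22 on HF-FD arrays, and 8.40, 8.32, 8.11 and 8.13 on LF-CD arrays, so the HF-SD replicates keep nearly the same order as for Fos. These genes were picked as the extremes of many correlations and are given as a description.

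Around the 10 genes, the remaining AP-1 family showed 3 of 7 tested genes lower and 0 higher in HF-SD than in LF-CD hypothalami (all genes 16.9% lower, 22.9% higher), with a median of -0.21. Atf3, a stress-induced repressor that can join AP-1, averaged 7.69 ± 0.02 (SD, n = 5) in HF-SD and 7.95 ± 0.15 (SD, n = 4) in LF-CD hypothalami. That log2 difference of -0.27 ± 0.06 (SE) had a limma adjusted p of 0.00765, and of 0.0419 after quantile normalization (-0.22). Maff, a small Maf protein that pairs with AP-1 factors, and Batf, an AP-1 family factor of immune cells, were also lower, with log2 differences of -0.22 and -0.28 (limma adjusted p 0.0263 and 0.0295). Both lost the call after quantile normalization (-0.03 and -0.14). Both were at -0.22 without HF-SD replicate 5, with limma adjusted p of 0.0553 and 0.0726. Fosl1 did not pass (-0.21, limma adjusted p 0.107). The count of genes lower was 1 of 7 after quantile normalization and 1 of 7 without HF-SD replicate 5, Atf3 in both. Maff and Batf averaged 6.72 and 7.09 in HF-SD and 6.95 and 7.37 in LF-CD hypothalami. Over all genes the direction of calls went with signal: with a filter at 7.86, 3036 of 9398 genes were higher and 343 lower. The part of signal level in these 3 calls was not tested.

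Of 6 further Egr and Nr4a genes with their corepressors, 0 passed. Nr4a2, the closest relative of Nr4a1, differed by 0.26 between HF-SD and LF-CD (limma adjusted p 0.158), and Egr4 by -0.18 (limma adjusted p 0.187). Nab2 and Nab1, which bind Egr proteins and repress them, differed by -0.14 and 0.13 (limma adjusted p 0.159 and 0.179).

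Among 39 tested genes of a wider list of stimulus-induced transcripts, 5 were higher and 0 lower in HF-SD than in LF-CD hypothalami (22.9% of all genes were higher), with a median of 0.045. Plk2, a kinase induced at active synapses, was 0.50 ± 0.16 (SE) higher (limma adjusted p 0.0246), and 0.32 without HF-SD replicate 5 (limma adjusted p 0.0166). Rgs2, a brake on G-protein signalling, was 0.26 higher (limma adjusted p 0.0314), and Scg2, a secretory granule protein, 0.19 (limma adjusted p 0.0225). Tiparp, an ADP-ribosyltransferase, was 0.18 higher (limma adjusted p 0.0373), and the fifth was Homer1, a scaffold of the postsynapse, named after its value was seen. After quantile normalization 2 of the 39 passed, Tiparp among them (0.31, limma adjusted p 0.0142). Plk2 lost its call there (0.42, limma adjusted p 0.0713), and Scg2 changed sign (-0.10, limma adjusted p 0.784). The count was also 2 without HF-SD replicate 5: Plk2 and Scg2 (0.20, limma adjusted p 0.0332). Tiparp (0.17, limma adjusted p 0.0781) and Rgs2 (0.22, limma adjusted p 0.0769) then lost the call, and Rgs2 did so after quantile normalization as well (0.23, limma adjusted p 0.0688).

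Of 25 upstream kinases, coactivators and factors, 7 were higher and 0 lower in HF-SD than in LF-CD hypothalami (22.9% of all genes were higher), with a median of 0.222. That median was 0.050 after quantile normalization (all genes 0.037) and 0.124 without HF-SD replicate 5 (all genes 0.052). Rps6ka3, the kinase RSK2 that phosphorylates CREB and SRF, averaged 8.25 ± 0.14 (SD, n = 5) in HF-SD and 7.79 ± 0.16 (SD, n = 4) in LF-CD hypothalami. Its log2 difference of 0.46 had a limma adjusted p of 0.00409, and of 0.0112 after quantile normalization (0.48). Rps6ka5, the related kinase MSK1, was 0.24 higher (limma adjusted p 0.0134), and Mef2a, an activity-regulated factor, 0.26 (limma adjusted p 0.0145). Rps6ka5 and Mef2a lost the call after quantile normalization (0.20 and 0.08, limma adjusted p 0.0594 and 0.452). Camk2b, a calcium-dependent kinase subunit, was 0.27 higher (limma adjusted p 0.0183), but -0.01 after quantile normalization. The count fell to 2 after quantile normalization and to 4 without HF-SD replicate 5. Markers of neurons moved with it: 7 of 8 were higher in HF-SD than in LF-CD, with list means of 11.39 to 11.71 in HF-SD and 11.14 to 11.41 in LF-CD hypothalami, and 0 of 8 passed after quantile normalization. The medians of the neuron, oligodendrocyte, astrocyte and endothelial and mural lists were 0.28, 0.318, 0.181 and 0.249, with 7 of 8, 0 of 5, 2 of 6 and 1 of 7 genes higher. The skeletal muscle list had a median of -0.779, with 6 of 7 genes lower. That count was 2 of 7 after quantile normalization and 2 of 7 without HF-SD replicate 5. After quantile normalization the astrocyte count was 0 of 6 and the endothelial and mural count 1 of 7. The hypothalamus list had a median of -0.058 (2 of 15 genes lower), the blood list -0.372 (1 of 5 lower). The microglia list had a median of 0.061 (1 of 6 higher). The part of these lists in the result was not tested. In the 4 lists of signalling and stimulus-induced genes no gene passed in HF-FD against LF-CD or in HF-SD against HF-FD, where limma called 0 of all genes.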

How the data were processed

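Hypothalamic RNA (100 ng per sample) was labelled with the GeneChip WT PLUS protocol, per the labels' protocols. The authors deposited 1 log2 signal per array for 70580 transcript clusters. Per the submitters' processing notes, these were made with Affymetrix Expression Console and RMA, and Transcriptome Analysis Console is named too, with no versions. The genome build of the probes is not given in the sources used. Log2 signals hold no counts, so precision is limited by the number of arrays.

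Rows annotated with 1 symbol (23446) gave 22093 genes. Where a gene had several rows, that of the highest mean was used. Genes with a mean of at least 6.58, the median of all row means, were tested (16033). The 3 diet means were fitted to all 13 arrays with limma 3.58.1 in R 4.3.3, without further normalization, and p-values were adjusted by Benjamini-Hochberg over all tested genes with a threshold of 0.05. Correlations used values minus the diet mean and 100000 permutations within diets. Exact permutation tests were two-sided. The limma step and the correlation step were tested on simulated data.

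Members and gene lists were chosen with earlier results of these data known. Genes of the other lists were named as the 4 with the smallest p in HF-SD against LF-CD. Alternatives covered scaling, filters, array weights, an olfactory receptor covariate, a replicate block and leaving out each array. Promoters are from RefSeq, assembly GRCr8.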

Additional observations from a re-analysis of the deposited data

Results flagged for a closer look

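In each diet group of 30 genes (the 10 immediate early genes, 10 markers of cortex, striatum and thalamus, and the 10 genes most like Fos), the highest or lowest array was set against its neighbours by Dixon's criterion, over 90 groups. Chance alone marks about 1 in 20 groups, and the groups marked, all named here, were near that share. Egr2 read 7.31 on HF-SD replicate 5, where the next HF-SD array was at 6.99. Fosb read 7.63 on HF-FD replicate 1, where the next HF-FD array was at 7.46. On HF-SD replicate 5 the cortical markers Slc17a7 (10.13, next 7.95), Tbr1 (8.50, next 7.62) and Neurod6 (6.39, next 5.69) were also far from the other HF-SD arrays. The cause of these values was not tested.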

How the results depend on the processing

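Genes passing in HF-SD against LF-CD, 6377 as deposited (3675 higher, 2702 lower), were 2326 (1625 higher, 701 lower) after quantile normalization, 3099 (2106 higher, 993 lower) after cyclic loess, 8278 (5720 higher, 2558 lower) after median centring, 10003 (3916 higher, 6087 lower) with no filter, 3379 (3036 higher, 343 lower) with a filter at the 75th percentile, 0 with the olfactory covariate (753 by unadjusted limma p) and 973 after quantile normalization without HF-SD replicate 5, an alternative chosen after seeing the data. HF-FD against LF-CD had 1 with no filter and 4713 with array weights, against 0 in limma otherwise (3226 by unadjusted p). HF-SD against HF-FD had 4667 with array weights, against 0 (2480 by unadjusted p). Any difference among diets (4062) gave 680 with quantile normalization, 1272 with loess, 6148 with centring, 6511 with no filter, 1986 with the stricter filter, 9866 with array weights, and 0 with the olfactory covariate, with the replicate block (5716 by unadjusted limma p) and with quantile normalization without HF-SD replicate 5. Leaving out each array gave 4512 to 6814, 0 to 0, 0 to 90 and 1470 to 4637 genes for these 4 tests. Without LF-CD replicate 3, 3035 genes were higher and 3401 lower in HF-SD than in LF-CD. The olfactory receptor median itself differed by diet, so the fit with it as a covariate can hardly tell them apart.

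Of the 10 immediate early genes, 0 passed in HF-SD against LF-CD with quantile normalization (also without HF-SD replicate 5), loess, centring, the olfactory covariate or only the 2 groups. The stricter filter left 6 of the 10 to be tested, and 0 passed. Npas4, with a mean of 6.94, was below its cut of 7.86 and so could not pass there. With only the 2 groups 5729 of all genes passed. Array weights gave 3 of the 10 (8988 of 16033 genes), and 3, 2 and 3 in the other tests. In HF-SD against LF-CD these were Npas4, Egr2 and Fosl2 (-0.17 and -0.18 for the last 2, limma adjusted p 0.0484 and 0.0244). In HF-FD against LF-CD (4713 of all genes) they were Junb, Npas4 and Nr4a1 (-0.26, -0.24 and -0.42, limma adjusted p 0.0489, 0.0336 and 0.0176). In HF-SD against HF-FD (4667 of all genes) they were Fos and Nr4a1 (0.48 and 0.42, limma adjusted p 0.0148 and 0.0104). Leaving out each array gave 0 to 2, 0 to 0, 0 to 0 and 0 to 1. With the replicate block Npas4 was at -0.28 (limma adjusted p 0.0193), and 1 of the 10 genes and 4652 of all genes passed. Only HF-SD has a replicate 5, so the block takes that array out of the comparison. The Npas4 difference is therefore the same as without HF-SD replicate 5. Whether arrays of equal number are pairs is not known. Their deviations from the diet mean correlated at 0.195 to 0.433 for replicates 1 and 4, and at -0.264 to 0.176 for replicates 2 and 3. The exact permutation test gave p = 0.0714 for Npas4 in HF-SD against LF-CD (-0.22) and p = 0.0857 in HF-FD against LF-CD (-0.21).

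For r with Fos, quantile normalization brought Egr2 (0.778) and Npas4 (0.776) past the threshold. Calls were lost for Jun and Junb with loess (0.482, 0.500) and centring (0.634, 0.536), for Junb by Spearman (0.599), for Fosb, Jun and Junb without removal of the diet mean (0.511, 0.501, 0.453), and with the median regressed out (0.267, 0.463, 0.132), where Fosl2 was at -0.563. Spearman added Fosl2 (0.681), and keeping the diet mean added Arc (0.805). Leaving out each array gave Arc 0.446 to 0.838, Egr1 0.825 to 0.952, Egr2 0.269 to 0.869, Fosb 0.540 to 0.710, Fosl2 0.323 to 0.478, Jun 0.434 to 0.852, Junb 0.419 to 0.663, Npas4 0.371 to 0.760 and Nr4a1 0.811 to 0.945. Except where the construction shows it (fewer genes or arrays), the cause was not tested.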

Other observations

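Among other signalling genes, upstream regulators often peaked on HF-SD replicate 5. Of 25 upstream regulators, 13 (52.0%) had their highest value there, against 19.9% of all tested genes, among them Camk2a, Camk4, Mef2c, Mef2d and Grin1. Of 43 further stimulus-induced genes, 9 did (20.9%), which is near the share of all tested genes: Ier5, Dusp1, Dusp4, Dusp6, Per1, Homer1, Ptgs2, Sgk1 and Plk2. Of the 6 further Egr and Nr4a genes with their corepressors, 1 did (Nr4a2). None of the 7 further AP-1 genes did. All 5 oligodendrocyte markers peaked on that array too, as did 3 of 8 neuron, 3 of 6 astrocyte, and 2 of 7 endothelial and mural markers. By contrast, 0 of 6 microglia, 0 of 5 blood, 0 of 7 skeletal muscle and 0 of 15 hypothalamus markers did. Besides Slc17a7 and Egr1, the differences of this array from the other HF-SD arrays were led by Ddn (1.73), Lamp5 (1.33), Pcdhgc5 (1.28), C1ql3 (1.26), Mlip (1.25) and Nrgn (1.17), named after their values were seen.

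The AP-1 genes Fosb, Fosl2 and Junb ran against the blood markers over the 13 arrays, with r of -0.812, -0.858 and -0.792 (rho -0.824, -0.819 and -0.802, permutation adjusted p for r 0.0125, 0.0217 and 0.026 over 110 relations). Without the 2 farthest arrays r was -0.648, -0.669 and -0.643. Fos followed the mean of 6 astrocyte markers (r = 0.872, rho = 0.863, permutation adjusted p 0.0139), and r was 0.781 without the 2 farthest arrays. This was not particular to Fos: with the same list the other immediate early genes had r from 0.623 (Npas4) to 0.809 (Nr4a1).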
